A study of Oryza sativa Japonica Group with 49 samples.

Results

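The genes described here are 9 gene models of the tandem arrays of class I small heat shock protein (HSP) genes on rice chromosomes 1 and 3, out of 55986 gene models in the count tables. They were chosen by identifier, not by their values. The chromosome 1 cluster holds 5 genes: LOC_Os01g04340, LOC_Os01g04350, LOC_Os01g04360 (OsHSP16.9C), LOC_Os01g04370 (Oshsp16.9) and LOC_Os01g04380 (OsHSP17.0). The chromosome 3 cluster holds 4 genes: LOC_Os03g15960, LOC_Os03g16020, LOC_Os03g16030 (OsHsp18.0-CI) and LOC_Os03g16040 (OsHSP17.7). The study's tables of stress-responsive genes, made from these libraries, annotate 8 of the 9 as hsp20/alpha crystallin family proteins, and LOC_Os01g04350 has no annotation in the sources used here. The levels of LOC_Os01g04350 went against the name of the class: it was at 46.2 CPM (a gene's share of the library's total, scaled as counts per 1000000) or more in every library and did not follow the other 8, so it is counted among the 9 by its identifier and is not called a small HSP gene here. No sequence of these genes was used, so class and location in the cell were taken from the gene names and not checked.

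Small HSPs are chaperones built around an alpha-crystallin domain. They bind unfolding proteins without using ATP, hold them soluble, and pass them to the ATP-driven chaperones HSP70 and HSP101 for refolding. In plants the cytosolic class I proteins are nearly absent from unstressed leaves, and heat shock factors (HSFs), the transcription factors that bind heat shock elements, switch their genes on when the temperature rises.

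RNA-seq was analysed in 31 libraries. The stress experiment held 19 libraries of the wild-type rice varieties ZH11 (Zhonghua 11) and DJ (Dongjin). For ZH11, unstressed, drought-treated and heated seedlings were sequenced in 3 libraries each, and unstressed and heated panicles in 2 libraries each. For DJ, unstressed and drought-treated seedlings were sequenced in 3 libraries each. Unstressed groups are called normal. The line comparison held 12 libraries of seedlings, 3 each of DJ-WT and onac023 under drought and under heat. The mutant onac023 is a single T-DNA insertion line of the NAC transcription factor gene ONAC023 in the DJ background, and DJ-WT is the wild type derived from its heterozygous parent generation. All seedlings were at the 4-leaf stage, and neither line was sampled here under normal conditions. By the labels, drought of seedlings was 7 d without water to a soil water content below 10%. Heat of seedlings was 45 °C at 70% humidity for 6 h by the labels, whereas the study's methods give 5 d and 10 h for seedlings. The labels give neither temperature nor duration for the heated panicles, so tissue and heat treatment cannot be told apart between heated panicles and heated seedlings. By the study's methods the replicates of a line were repeats of the treatment, with no fewer than 10 seedlings sequenced from each. How the panicle replicates were made is not given in the sources used here, so their p-values measure only the spread between these libraries, which may be technical.

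Total counts ranged from 39789339 to 132110274 per library. A sequenced read pair was worth more than 1 count: the most frequent low value was 2 in 21 libraries and 4 in the other 10. These 10 were the normal and heated seedlings and all panicles of ZH11. Drought-treated ZH11 seedlings and all DJ, DJ-WT and onac023 libraries had 2. Comparisons of ZH11 drought with ZH11 normal or heat, and of DJ with ZH11, therefore set libraries of both kinds against each other. There, how libraries were made or counted cannot be told apart from treatment or variety. ONAC023 (LOC_Os02g12310) was at 1.39 to 4.88 CPM in DJ-WT and 0 to 0.212 CPM in onac023. The variety label of DJ-WT did not hold as simply. Of 36 genes seen only in ZH11 seedlings of the stress experiment, DJ-WT libraries had 36 under drought and 34 to 35 under heat, while onac023 libraries had 17 to 23. Of 54 genes seen only in DJ seedlings, all 54 were detected in every DJ-WT drought library and 53 to 54 in those of onac023, while under heat 42 were detected in every DJ-WT library and 45 to 46 in those of onac023. The drought comparison of the lines is therefore also given with the drought-treated DJ seedlings as the wild type. The floral genes OsMADS2 and OsMADS4 summed to 208 to 319 CPM in the panicles and to 0.0998 to 2.64 CPM in the seedling libraries. In these bulk samples, fewer cells of a type and less RNA per cell cannot be told apart.

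**Figure D1:**
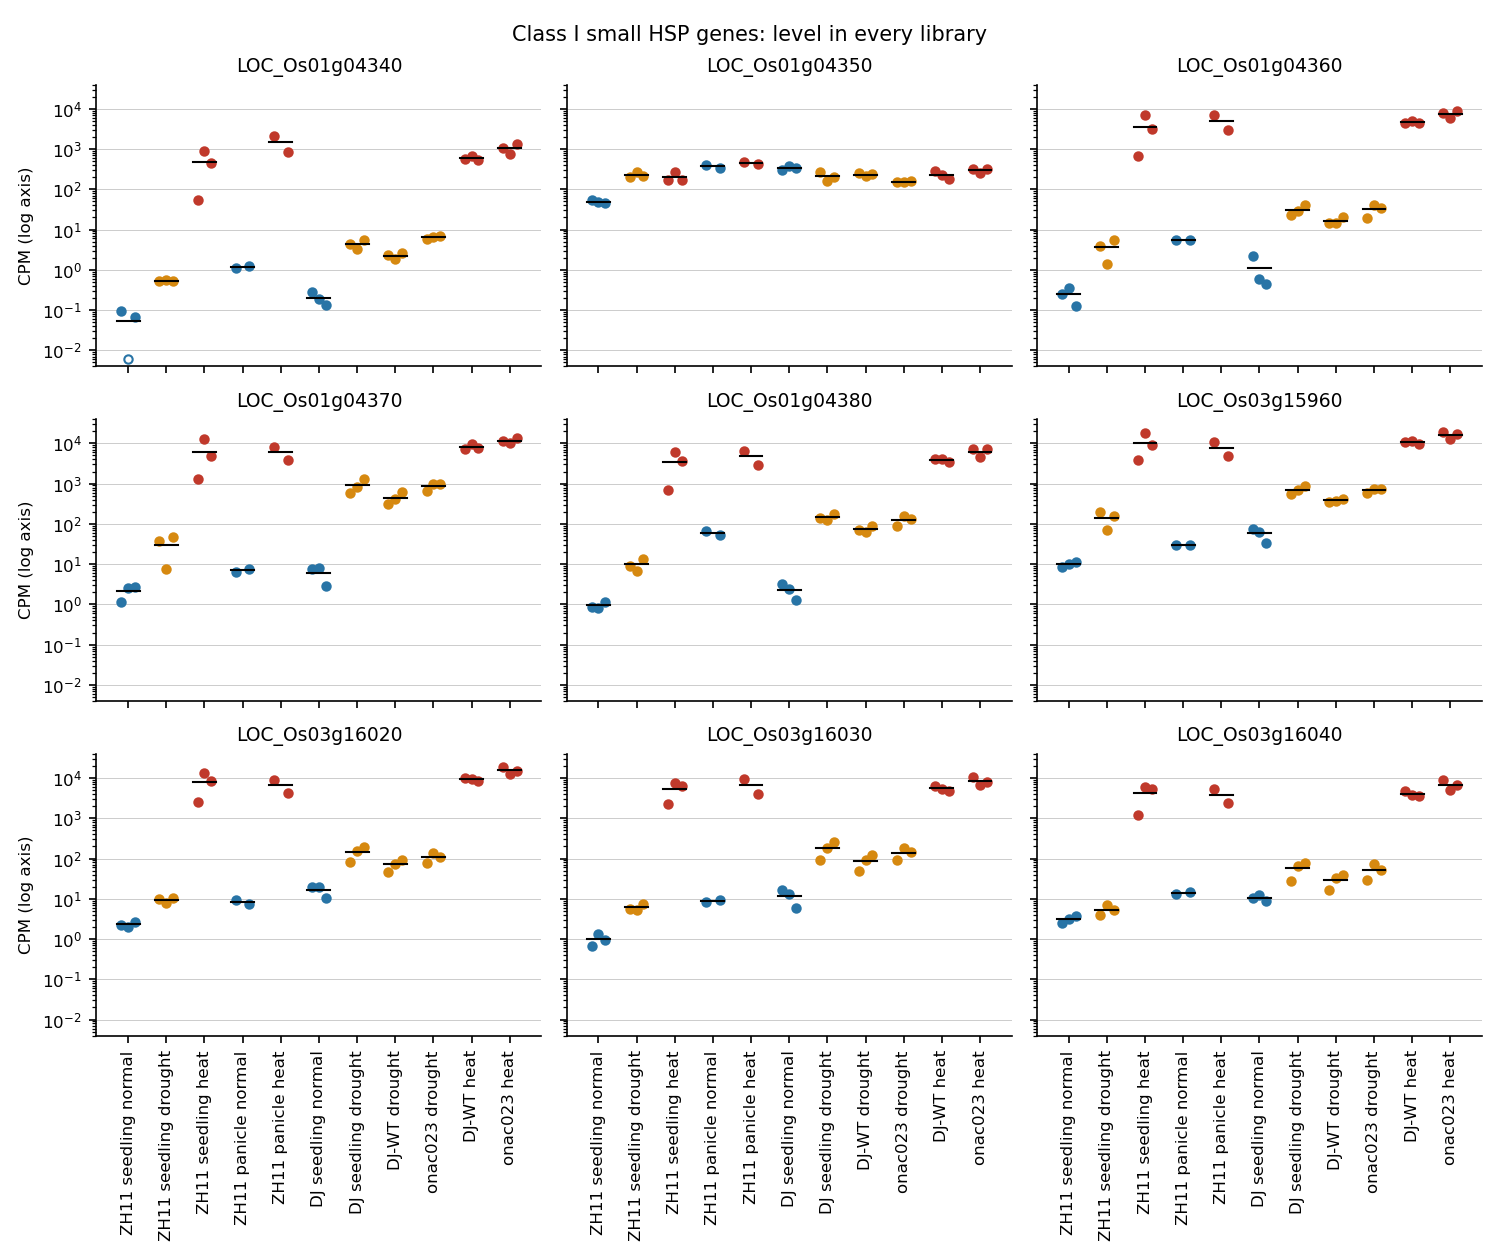
Level of each of the 9 genes in every library, as CPM on a log axis, with 1 panel per gene, 1 point per library and a line at the group mean (blue normal, orange drought, red heat). The open circle is a library with 0 counts of LOC_Os01g04340, drawn at the bottom of the axis. In ZH11 seedlings the group means in 8 panels step up from normal through drought to heat. In the same panels they step up from normal to drought in DJ seedlings, and from drought to heat in DJ-WT and onac023. LOC_Os01g04350 lies between 46.2 and 468 CPM in all libraries.

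Heat raised both clusters in ZH11 seedlings from traces to a sizeable part of the library. Together the 9 genes made up 0.00686% to 0.00698% of the counts of normal seedlings and 1.26% to 7.12% of those of heated seedlings. All 9 rose past the threshold (more than 2-fold in the edgeR quasi-likelihood test, with p adjusted by Benjamini-Hochberg below 0.05), beside 31.4% of all genes tested. The CPM of the heated and normal libraries did not overlap in any of the 9, as in 38.3% of all genes. Their median log2 fold change was 11.93, against 0.09 over all genes.

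On chromosome 1, LOC_Os01g04360 was at 0.250, 0.361 and 0.128 CPM in normal seedlings and at 679, 6833 and 3136 CPM in heated seedlings. Its log2 fold change of 14.00 ± 1.39 (SE, adjusted p = 0.000182) was the largest of the 9. LOC_Os01g04370 went from 1.17, 2.54 and 2.76 CPM to 1282, 12574 and 4954 CPM, a log2 fold change of 11.70 ± 1.29 (adjusted p = 0.000281). LOC_Os01g04380 was at 0.836 to 1.16 CPM without stress and at 683, 5951 and 3708 CPM under heat (log2 fold change 11.98 ± 1.16). LOC_Os01g04340 had 10, 0 and 8 counts in the normal libraries, so its log2 fold change of 13.17 ± 1.64 rests on very few counts on that side, and it reached 53.1, 908 and 442 CPM under heat. In all 4 copies the heated libraries lay far above the normal ones, and heated replicate 1 was the lowest each time.

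LOC_Os01g04350 did not follow its neighbours. It was already at 53.4, 48.6 and 46.2 CPM in normal seedlings and reached only 165, 271 and 173 CPM under heat, a log2 fold change of 2.16 ± 0.29 (adjusted p = 0.000703). The groups do not overlap, but the fitted rise was the smallest of the 9.

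On chromosome 3, LOC_Os03g15960 rose from 8.65, 10.1 and 11.0 CPM without stress to 3757, 17956 and 9134 CPM (log2 fold change 10.18 ± 0.89). LOC_Os03g16020 rose from 1.99 to 2.70 CPM to 2578, 13059 and 8480 CPM (11.93 ± 0.96). LOC_Os03g16030, also known as OsMSR3, rose from 0.676, 1.36 and 0.930 CPM to 2212, 7705 and 6454 CPM, and its log2 fold change of 12.57 ± 0.88 had the smallest adjusted p of the 9 (4.43e-05). LOC_Os03g16040 rose from 2.46, 3.21 and 3.63 CPM to 1230, 5929 and 5352 CPM (10.54 ± 0.90). The heated libraries differed among themselves by 3.48 to 5.07 times in these 4 genes and by 8.71 to 17.1 times in the 4 inducible copies of chromosome 1. The order of the libraries was the same in all 8 genes, with replicate 1 lowest and replicate 2 highest. Without heated replicate 2, the fold changes of LOC_Os01g04340, LOC_Os01g04360, LOC_Os01g04370, LOC_Os01g04380, LOC_Os03g15960 and LOC_Os03g16020 were smaller by over 1.5 times, at log2 values of 12.09, 12.95, 10.52, 11.18, 9.35 and 11.24. All 9 calls held with any 1 library left out.

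In ZH11 panicles, 8 of the 9 genes rose under heat, beside 8.57% of all genes, and LOC_Os01g04350 did not pass the test. The heated and normal panicles did not overlap in any of the 9, as in 18.4% of all genes, and the median log2 fold change was 10.12 against 0.00 over all genes. The 9 genes made up 0.0476% and 0.0544% of the counts of the normal panicles and 5.88% and 2.68% of those of the heated panicles. LOC_Os01g04340 was at 1.09 and 1.23 CPM and reached 2052 and 858 CPM (log2 fold change 10.83 ± 0.78). LOC_Os01g04360 went from 5.43 and 5.52 CPM to 6936 and 3014 CPM (10.37 ± 0.77), and LOC_Os01g04370 from 6.30 and 7.70 CPM to 8181 and 3901 CPM (10.28 ± 0.74). LOC_Os01g04380 was already at 65.1 and 54.1 CPM in normal panicles and reached 6618 and 2954 CPM, the smallest rise of the 8 (6.86 ± 0.66). LOC_Os01g04350 was at 405 and 347 CPM without stress and at 468 and 429 CPM under heat (0.74 ± 0.23, adjusted p = 0.0970). On chromosome 3, LOC_Os03g15960, LOC_Os03g16020, LOC_Os03g16030 and LOC_Os03g16040 rose by 8.57 ± 0.71, 10.16 ± 0.75, 10.12 ± 0.79 and 8.62 ± 0.69 on the log2 scale. Heated replicate 1 was 2.10 to 2.39 times as high as replicate 2 in these 8 genes. Without it their log2 fold changes were 5.96 to 9.86, and LOC_Os01g04340 was at 11.42 without replicate 2. The 8 calls held in both cases.

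The heat response of panicles was then compared with that of seedlings by an interaction term, in which tissue and heat treatment cannot be told apart. It was smaller in panicles for 4 of the 9 genes, beside 23.4% of all genes: LOC_Os01g04380 by a log2 difference of -5.16 ± 1.18 (adjusted p = 0.00593), LOC_Os01g04360 by -3.68 ± 1.30, LOC_Os03g16030 by -2.50 ± 0.90 and LOC_Os01g04350 by -1.46 ± 0.42. The differences of the other 5, from -2.39 to -1.46, did not pass. The normal ZH11 seedling libraries enter this comparison as well as those of drought, variety and tissue, which are therefore not independent. The levels under heat overlapped between the tissues in 8 of the genes, whereas without stress all 9 genes were higher in panicles (33.8% of all genes were), from a log2 difference of 1.15 ± 0.10 for LOC_Os03g15960 to 5.51 ± 0.15 for LOC_Os01g04380. Without panicle heat replicate 1 the differences of LOC_Os01g04380, LOC_Os01g04360 and LOC_Os03g16030 were -6.08, -4.63 and -3.45, and without seedling heat replicate 2 those of the first 2 were -4.40 and -2.67. The interaction calls rested on single libraries: only that of LOC_Os01g04380 held with any 1 library left out. Without ZH11 seedling heat replicate 1 there were 8 calls, while without panicle heat replicate 2 or panicle normal replicate 1 there was 1, and LOC_Os01g04360 was called in no fit without 1 library other than the former (adjusted p up to 0.144). With the replicate number as a block, LOC_Os01g04360 (adjusted p = 0.0883) and LOC_Os03g16030 (adjusted p = 0.102) were not called. Of the calls between normal panicles and seedlings, that of LOC_Os01g04370 (1.27 ± 0.35) was lost without panicle replicate 2 or seedling replicate 1 (adjusted p up to 0.0641), and the value of LOC_Os01g04340 (3.92 ± 0.85) was 4.51 without seedling replicate 1.

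**Figure D2:**
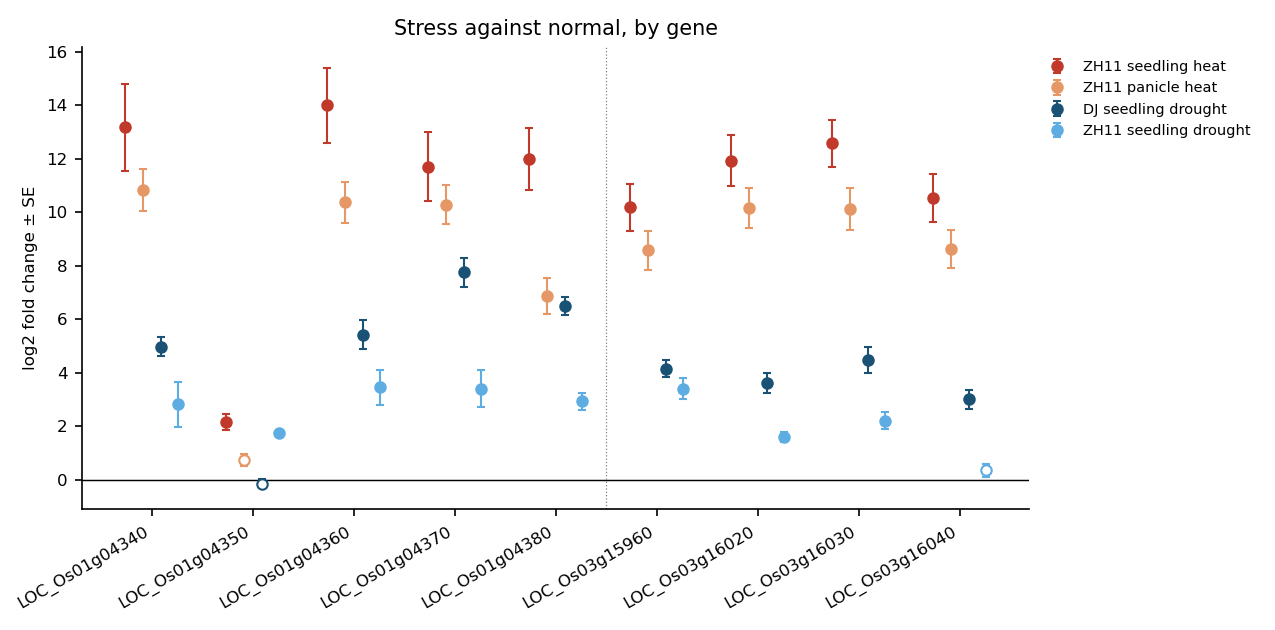
Log2 fold change under stress against normal conditions for each gene, with SE bars (chromosome 1 genes left of the dotted line, chromosome 3 genes right). Filled points passed the threshold and open points did not; heat points lie above drought points for every gene but LOC_Os01g04350, and in DJ the drought response runs from -0.14 for that gene to 7.75 for LOC_Os01g04370.

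Drought moved the clusters less than heat. In DJ seedlings 8 of the 9 rose, beside 25.2% of all genes, with a median log2 fold change of 4.48 against -0.14 over all genes. LOC_Os01g04370 stood out: it was at 7.79, 7.90 and 2.84 CPM in normal DJ seedlings and at 580, 829 and 1336 CPM under drought, a log2 fold change of 7.75 ± 0.53 (adjusted p = 1.40e-06). LOC_Os01g04380 went from 3.29, 2.42 and 1.26 CPM to 138, 124 and 175 CPM (6.51 ± 0.34). LOC_Os01g04360 reached 23.5, 28.1 and 41.6 CPM from 2.22, 0.601 and 0.441 CPM (5.42 ± 0.54, and 6.43 without DJ normal replicate 1). LOC_Os01g04340 reached 3.24 to 5.34 CPM from 0.132 to 0.286 CPM (4.98 ± 0.35). The drought libraries were above the normal ones with no overlap in 8 of the 9 genes, as in 27.5% of all genes.

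LOC_Os01g04350 was at 309, 376 and 340 CPM in normal DJ seedlings and at 270, 162 and 206 CPM under drought, so that its CPM was lower under drought with no overlap, as in 56.8% of all genes. After TMM normalization its log2 fold change was -0.14 ± 0.16 (adjusted p = 0.427). Of the chromosome 3 copies, LOC_Os03g16030 rose the most (from 16.4, 12.9 and 5.91 CPM to 91.1, 188 and 258 CPM, 4.48 ± 0.49), followed by LOC_Os03g15960 (4.16 ± 0.33), LOC_Os03g16020 (3.63 ± 0.37) and LOC_Os03g16040 (3.00 ± 0.36). LOC_Os03g15960 reached 569, 709 and 849 CPM from 76.1, 62.7 and 34.5 CPM. The leaf genes OsRBCS2, OsRBCS3, OsRBCS4 (small subunits of Rubisco) and CAB2R (a chlorophyll-binding protein) summed to 9612 to 12763 CPM in normal DJ seedlings and 193 to 309 CPM under drought, with all 4 lower, and their part in the result was not tested.

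In ZH11 seedlings 8 of the 9 rose under drought as well, beside 26.2% of all genes, with a median log2 fold change of 2.82 against 0.07. Drought and normal libraries did not overlap in any of the 9, as in 53.7% of all genes. LOC_Os03g15960 was at 197, 71.6 and 158 CPM under drought, well above the 8.65 to 11.0 CPM of normal seedlings (3.41 ± 0.38, adjusted p = 0.000267). LOC_Os01g04370 was at 37.4, 7.47 and 47.0 CPM (3.41 ± 0.71), with replicate 2 apart from the others. LOC_Os01g04360 showed the same order at 3.94, 1.39 and 5.63 CPM (3.45 ± 0.65). LOC_Os01g04350 rose from 46.2 to 53.4 CPM to 201, 262 and 210 CPM (1.74 ± 0.13). LOC_Os01g04340, at 22 to 33 counts under drought, rose by 2.82 ± 0.83, and by 3.41 without normal replicate 1. This call was lost without drought replicate 1, drought replicate 3 or normal replicate 3 (adjusted p up to 0.0639), and with the replicate number as a block (adjusted p = 0.05003). LOC_Os03g16040 was the exception: 3.98, 6.88 and 5.31 CPM under drought against 2.46, 3.21 and 3.63 CPM without stress gave a log2 fold change of 0.36 ± 0.25 (adjusted p = 0.231). With the counts scaled to read pairs, 8 of the 9 genes were called under drought too. The 4 leaf genes summed to 14779 to 19665 CPM in normal ZH11 seedlings, 3875 to 8312 CPM under drought and 6712 to 13730 CPM under heat, and their part in these results was not tested.

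The drought response differed between the varieties for 7 of the 9 genes by the interaction term. It was larger in DJ for 6, beside 20.2% of all genes, namely LOC_Os01g04370 (log2 difference 4.38 ± 0.89, adjusted p = 0.00103), LOC_Os01g04380 (3.62 ± 0.46), LOC_Os03g16040 (2.66 ± 0.48), LOC_Os03g16030 (2.29 ± 0.62), LOC_Os01g04340 (2.19 ± 0.84) and LOC_Os03g16020 (2.06 ± 0.45). It was smaller in DJ for LOC_Os01g04350 (-1.86 ± 0.22), beside 28.2% of all genes. LOC_Os01g04360 (1.96 ± 0.92) and LOC_Os03g15960 (0.78 ± 0.51) did not pass. The call of LOC_Os01g04340 held without ZH11 normal replicate 2, ZH11 drought replicate 2, DJ normal replicate 1 or DJ drought replicate 2 and was lost without any 1 of the other 8 libraries (adjusted p up to 0.165), among them ZH11 normal replicate 1, without which its value was 1.60. LOC_Os01g04360 was called without DJ normal replicate 1, at 3.01, or ZH11 drought replicate 3 (adjusted p down to 0.00758). The 4 leaf genes summed to 193 to 309 CPM in drought-treated DJ and 3875 to 8312 CPM in drought-treated ZH11 seedlings, and their part in the difference between varieties was not tested.

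Without stress, 5 of the 8 genes that could be tested were higher in DJ than in ZH11 seedlings, beside 24.6% of all genes: LOC_Os03g16030 by a log2 difference of 3.10 ± 0.42, LOC_Os03g16020 by 2.39 ± 0.26, LOC_Os01g04350 by 2.30 ± 0.10, LOC_Os03g15960 by 2.07 ± 0.27 and LOC_Os03g16040 by 1.27 ± 0.18. All 4 copies of chromosome 3 were among them, but of chromosome 1 only LOC_Os01g04350. LOC_Os01g04360 (1.67 ± 0.70), LOC_Os01g04370 (1.05 ± 0.44) and LOC_Os01g04380 (0.80 ± 0.36) did not pass, and LOC_Os01g04340 was left out by the filter on low counts. DJ normal replicate 3 was the lowest of the DJ libraries in most genes, for instance 2.84 CPM of LOC_Os01g04370 beside 7.79 and 7.90 CPM. Without it, all 8 genes passed (adjusted p up to 0.0306 for LOC_Os01g04360, LOC_Os01g04370 and LOC_Os01g04380). Without DJ normal replicate 1, LOC_Os01g04360 was at 0.57 (adjusted p = 0.391) and LOC_Os01g04380 at 0.44 (adjusted p = 0.281). Of the leaf genes, OsRBCS2 (-1.89 ± 0.20), OsRBCS4 (-1.50 ± 0.18) and CAB2R (-1.10 ± 0.17) were lower in DJ, with sums of the 4 genes of 9612 to 12763 CPM in DJ and 14779 to 19665 CPM in ZH11, and their part in the difference was not tested.

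Heat and drought were also compared directly. In ZH11 seedlings 8 of the 9 genes were higher under heat than under drought, beside 18.1% of all genes, by log2 differences of 6.74 (LOC_Os03g15960) to 10.50 (LOC_Os01g04360), or 5.94 to 9.90 without heated replicate 2. LOC_Os01g04350 did not differ past the threshold (0.39 ± 0.30, adjusted p = 0.320). In DJ-WT the difference between heat and drought was smaller for LOC_Os01g04370 (4.85 ± 0.36) and LOC_Os03g15960 (5.44 ± 0.25) than for the other inducible copies (6.33 to 8.77), with 8 of 9 genes called higher beside 18.2% of all genes. In onac023 all 9 were called higher beside 25.5%, with LOC_Os01g04370 (4.37 ± 0.28), LOC_Os03g15960 (5.21 ± 0.30) and LOC_Os01g04350 (1.58 ± 0.15) the lowest. Of the leaf genes, OsRBCS2 and CAB2R were higher under heat in ZH11 (1.70 and 2.80) and in DJ-WT (2.13 and 3.62). OsRBCS3 and OsRBCS4 did not pass in ZH11 (0.08 and -0.48) or in DJ-WT (0.65 and -0.08). In onac023 all 4 were higher under heat, OsRBCS2 by 7.01, OsRBCS3 by 4.57, OsRBCS4 by 5.06 and CAB2R by 6.27. Their sum in onac023 was 174 to 266 CPM under drought and 6832 to 9383 CPM under heat, and their part in these differences was not tested.

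**Figure D3:**
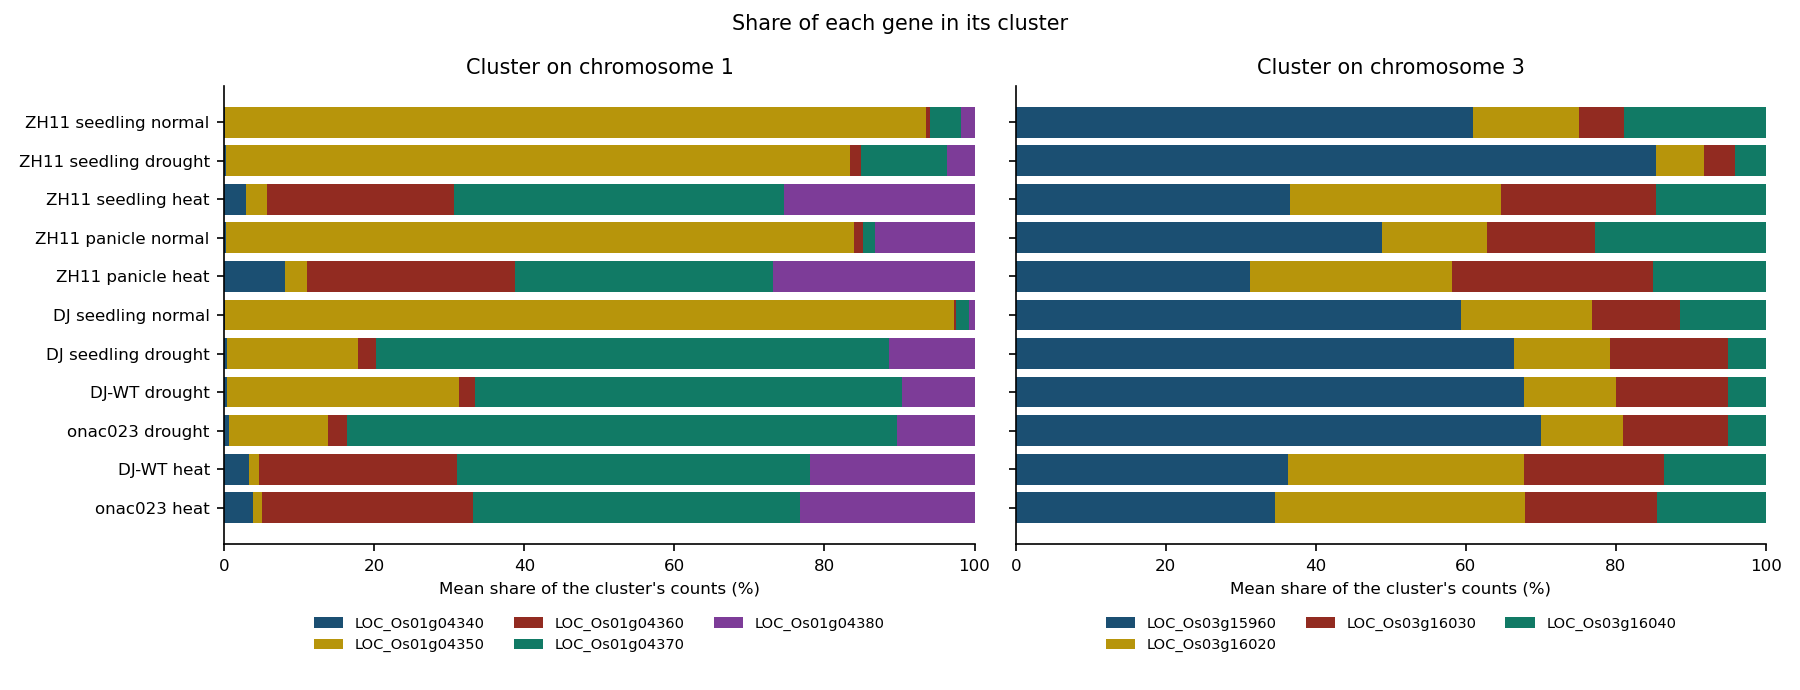
Mean share of each gene in the summed counts of its cluster, in percent, for the 11 groups (bars add to 100%). LOC_Os01g04350 fills 83.2% to 97.2% of the chromosome 1 bar in normal seedlings, normal panicles and ZH11 drought and 1.11% to 2.89% under heat, while LOC_Os01g04370 fills 56.8% to 73.3% in the 3 drought groups of DJ background, with LOC_Os01g04350 counted in the sum.

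Within each cluster, the genes did not move in parallel. A gene's share of its cluster's counts depends on transcript length, so that only changes in share between groups are compared. On chromosome 1, LOC_Os01g04350 made up 93.5% ± 2.02 of the counts (SD, n = 3) in normal ZH11 seedlings, 97.2% ± 1.43 in normal DJ seedlings and 2.73% ± 2.64 in heated ZH11 seedlings. Since it filled most of the sum without stress, the shares of the other 4 genes are given among themselves, a choice made after the data were seen. By this count LOC_Os01g04370 held 61.3% ± 10.8 in normal ZH11 seedlings, 63.2% ± 15.1 under drought and 45.3% ± 4.18 under heat. Its heated libraries (40.5% to 47.9%) lay below the normal ones (48.8% to 68.0%) and overlapped those of drought (45.8% to 73.3%). LOC_Os01g04360 was at 7.75% ± 4.03, 8.23% ± 0.455 and 25.6% ± 0.420, with heat apart from both other groups. LOC_Os01g04380 was at 29.1% ± 7.28, 26.8% ± 13.3 and 26.1% ± 3.88, all overlapping.

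In panicles the shares among these 4 genes started elsewhere. LOC_Os01g04380 held 78.9% and 83.6% in the normal panicles and 27.5% and 27.8% in the heated ones. LOC_Os01g04370 went from 8.08% and 11.2% to 34.4% and 36.4%, and LOC_Os01g04360 from 6.96% and 8.05% to 28.1% and 29.2%. LOC_Os01g04340 reached 7.998% and 8.62% in heated panicles against 1.97% to 3.61% in heated ZH11 seedlings, with no overlap between the tissues.

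Under drought, LOC_Os01g04370 gained share in DJ seedlings, from 63.1% ± 7.15 of the 4 genes without stress to 82.6% ± 4.25, with no overlap (57.4% to 71.1% against 77.7% to 85.8%). The other 3 were lower in share, LOC_Os01g04360 at 2.89% ± 0.246 against 10.4% ± 5.51, LOC_Os01g04380 at 14.1% ± 3.86 against 24.3% ± 2.54, and LOC_Os01g04340 at 0.424% ± 0.152 against 2.20% ± 0.593. In the line comparison LOC_Os01g04370 held 82.1% ± 3.94 under drought and 47.7% ± 2.40 under heat in DJ-WT, and 84.5% ± 1.48 and 44.1% ± 2.94 in onac023. LOC_Os01g04360 held 3.12% ± 0.392 under drought and 26.7% ± 1.12 under heat in DJ-WT, and 3.00% ± 0.432 and 28.5% ± 0.712 in onac023. With LOC_Os01g04350 in the sum, the share of LOC_Os01g04370 was 1.76% ± 0.832 in normal DJ seedlings and 68.4% ± 9.93 under drought, and 11.5% ± 7.72 in ZH11 under drought, where LOC_Os01g04350 made up 83.2% ± 9.64, so that these shares move with the level of LOC_Os01g04350.

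On chromosome 3, the share of LOC_Os03g15960 was 60.9% ± 0.757 in normal ZH11 seedlings, 85.3% ± 6.75 under drought and 36.6% ± 4.86 under heat, with no overlap between these 3 groups. LOC_Os03g16020 moved the other way, from 14.2% ± 2.02 to 6.35% ± 2.18 under drought and 28.1% ± 1.56 under heat. LOC_Os03g16030 was at 6.02% ± 1.85, 4.21% ± 1.63 and 20.6% ± 2.92, and LOC_Os03g16040 at 18.9% ± 1.19, 4.09% ± 2.99 and 14.7% ± 3.06. In DJ seedlings the shares under drought were closer to those without stress: 66.4% ± 6.56 against 59.3% ± 2.39 for LOC_Os03g15960, and 15.8% ± 3.57 against 11.7% ± 1.76 for LOC_Os03g16030, both overlapping. LOC_Os03g16040 was at 5.02% ± 1.21 in DJ under drought and 11.5% ± 3.25 without stress. In heated panicles, LOC_Os03g15960 (31.2%), LOC_Os03g16020 (26.9%) and LOC_Os03g16030 (26.7%) held most of the counts.

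Changes in share were tested by an exact two-sided permutation test on the log2 ratio of a gene to the rest of its cluster, 54 tests in all. For 3 libraries against 3 the smallest p is 0.1, which gave an adjusted p of 0.225, so none could pass. In ZH11 seedling heat 8 of the 9 genes reached that smallest p, LOC_Os01g04350 with a log2 ratio change of -9.48, LOC_Os01g04360 with 6.24 and LOC_Os03g16030 with 2.04, while LOC_Os03g16040 (-0.46) did not (exact permutation p = 0.200). In DJ seedling drought 7 of the 9 did, from -7.58 for LOC_Os01g04350 to 7.09 for LOC_Os01g04370. Without LOC_Os01g04350 in the ratio, which added 24 tests, LOC_Os01g04360 (2.19) and LOC_Os01g04370 (-0.95) reached it in ZH11 seedling heat, where the change of LOC_Os01g04370 had been above 0 with that gene in the ratio. In DJ seedling drought LOC_Os01g04370 (1.48), LOC_Os01g04340 (-2.50), LOC_Os01g04360 (-1.84) and LOC_Os01g04380 (-0.999) reached it, and in ZH11 drought none of the 4 did (exact permutation p from 0.700 to 1). The counting tool is not given in the sources used here. Neighbouring genes of an array can be close relatives and share reads, so that the split between them is uncertain.

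The line comparison asks whether the levels of these genes under stress differ between DJ-WT and onac023. Since neither line was sampled under normal conditions, it compares levels and not responses to stress. Under drought, 7 of the 9 genes were lower in DJ-WT than in onac023, beside 7.21% of all genes, with a median log2 difference of -1.17 against 0.09 over all genes. LOC_Os01g04340 was at 2.33, 1.84 and 2.60 CPM in DJ-WT and 5.73, 6.54 and 6.99 CPM in onac023 (-1.88 ± 0.19, adjusted p = 0.000101). LOC_Os03g15960 was at 357, 375 and 421 CPM against 579, 724 and 744 CPM (-1.20 ± 0.12, adjusted p = 9.35e-05), and LOC_Os01g04370 at 308, 407 and 627 CPM against 658, 969 and 985 CPM (-1.34 ± 0.26). The libraries of the lines do not overlap in these 3 genes, as in 16.5% of all genes. They overlap in LOC_Os01g04360 (-1.32 ± 0.27), LOC_Os01g04380 (-1.12 ± 0.21), LOC_Os03g16030 (-1.04 ± 0.34) and LOC_Os03g16040 (-1.17 ± 0.39), which passed, and in LOC_Os03g16020 (-0.98 ± 0.29), which fell short of a 2-fold difference. LOC_Os01g04350 went the other way in CPM, at 248, 209 and 240 CPM in DJ-WT and 148, 153 and 159 CPM in onac023, with no overlap (as in 54.2% of all genes) and a log2 difference of 0.23 ± 0.08 after TMM normalization. By group means of CPM, which are not TMM-normalized, only LOC_Os01g04340 was more than 2-fold lower in the wild type (2.26 against 6.42). The other calls of more than 2-fold therefore rest on the normalization. Without onac023 drought replicate 2 there were 4 calls. LOC_Os01g04380 was lost then, and LOC_Os03g16030 and LOC_Os03g16040 were lost without that library, onac023 replicate 3, DJ-WT replicate 1 or DJ-WT replicate 2 (adjusted p up to 0.112), whereas LOC_Os03g16020 was called without DJ-WT replicate 2 or 3 or onac023 replicate 1 or 3 (adjusted p down to 0.0103).

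This difference between lines depended on the wild-type libraries used. With drought-treated DJ seedlings as the wild type, 0 of the 9 genes passed in edgeR and the median difference was 0.05, while 294 of 22978 genes passed. Only LOC_Os01g04340 (-0.67 ± 0.19) and LOC_Os01g04350 (0.36 ± 0.14) had an unadjusted p under 0.05. The other 7 lay between -0.12 and 0.29. DJ seedling drought libraries held 580 to 1336 CPM of LOC_Os01g04370 and 569 to 849 CPM of LOC_Os03g15960, which overlapped the 658 to 985 CPM and 579 to 744 CPM of onac023 and reached past them on both sides. The DJ seedlings and onac023 belong to different experiments. The 4 leaf genes summed to 2804 to 5941 CPM in DJ-WT under drought, 174 to 266 CPM in onac023 and 193 to 309 CPM in DJ seedlings, with all 4 genes higher in DJ-WT, and their part in the line difference was not tested. Against a threshold of a 2-fold difference built into the test (glmTreat), 1 gene, LOC_Os01g04340, remained called.

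Under heat, 5 of the 9 genes were lower in DJ-WT than in onac023, beside 2.24% of all genes, with a median log2 difference of -1.10 against 0.03. LOC_Os01g04340 was at 570, 663 and 528 CPM in DJ-WT and 1085, 736 and 1306 CPM in onac023 (-1.22 ± 0.27, adjusted p = 0.0206). LOC_Os01g04360 was at 4368, 4940 and 4550 CPM against 7990, 5900 and 8829 CPM (-1.10 ± 0.28), LOC_Os01g04380 at 4005, 4020 and 3498 CPM against 7083, 4638 and 7094 CPM (-1.10 ± 0.28), LOC_Os03g16020 at 10142, 9453 and 8443 CPM against 18671, 12780 and 15300 CPM (-1.13 ± 0.30), and LOC_Os03g16040 at 4787, 3790 and 3546 CPM against 8714, 5103 and 6750 CPM (-1.16 ± 0.31). DJ-WT libraries were below those of onac023 with no overlap in 8 of the 9 genes, as in 5.00% of all genes. LOC_Os01g04370 (-0.87 ± 0.28), LOC_Os03g15960 (-0.99 ± 0.31), LOC_Os03g16030 (-0.98 ± 0.29) and LOC_Os01g04350 (-0.74 ± 0.22) did not pass. These log2 differences are fitted after TMM normalization, whereas the CPM are not normalized in that way. By group means of CPM the lines differed less than 2-fold in all 9 genes. The means were furthest apart for LOC_Os01g04340, at 587 against 1042. The calls of more than 2-fold under heat therefore rest on the normalization. Together the 9 genes made up 4.32% to 4.96% of the counts in DJ-WT and 5.86% to 8.47% in onac023.

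The heat calls were near the limit of the test. In edgeR 0 genes were called without DJ-WT heat replicate 3, onac023 heat replicate 1 or onac023 heat replicate 3, where 7, 9 and 8 of the 9 had an unadjusted p under 0.05. There was 1 call without DJ-WT heat replicate 2 and there were 7 without onac023 heat replicate 2, and glmTreat called 0 (0 with an unadjusted p under 0.05), while DESeq2 called 5. All 9 differences were below 0 with any 1 library left out. The 4 leaf genes summed to 6142 to 16621 CPM in DJ-WT and 6832 to 9383 CPM in onac023, and the part of these genes and of the ZH11-specific genes of DJ-WT in the line difference was not tested. No second set of wild-type heat libraries of DJ was analysed here. The share of LOC_Os01g04370 in its cluster was 47.0% ± 2.48 in heated DJ-WT and 43.6% ± 2.90 in heated onac023. Of the 9 genes, LOC_Os01g04350 alone passed the interaction of line with stress (log2 difference -1.03 ± 0.25, adjusted p = 0.00781), beside 14.7% of all genes called lower. It was smaller than 2-fold under DESeq2 (-0.87), RLE (-0.86) and upper quartile scaling (-0.99), and was not called without any 1 of 7 of the 12 libraries, namely the 3 DJ-WT drought libraries, DJ-WT heat replicate 3, onac023 drought replicate 1 and onac023 heat replicates 1 and 3 (adjusted p up to 0.0325).

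**Figure D4:**
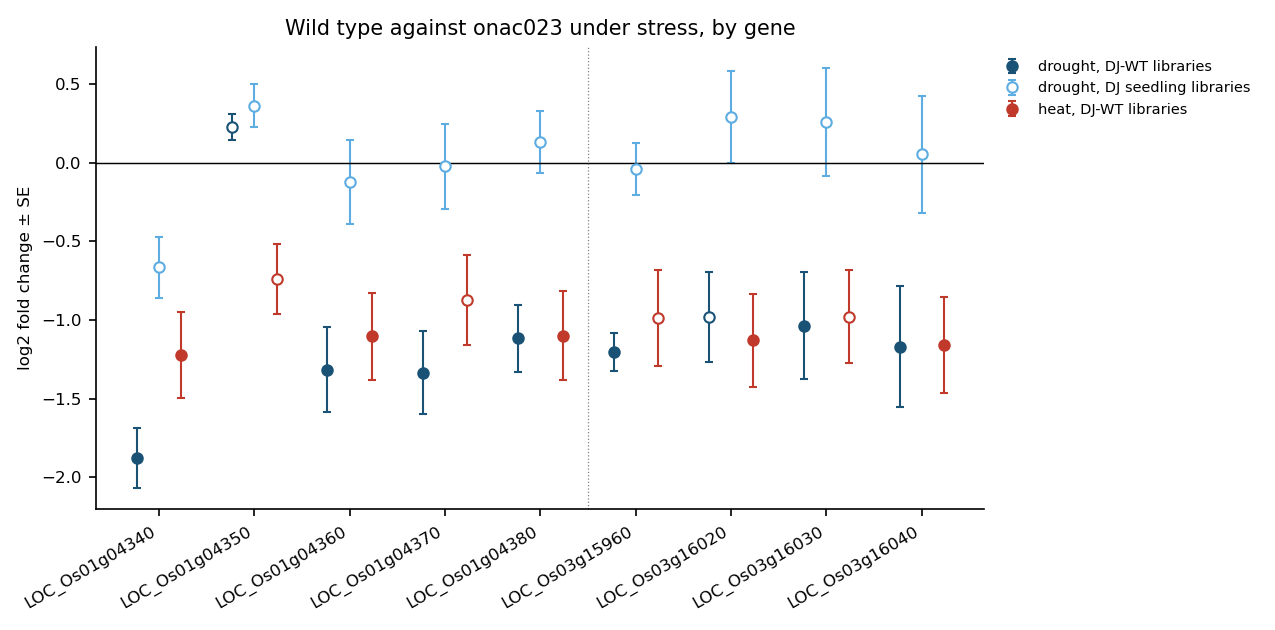
Log2 difference of wild type against onac023 for each gene, with SE bars, under drought with DJ-WT (dark blue), under drought with DJ seedlings as the wild type (light blue) and under heat with DJ-WT (red). Filled points passed the threshold; the light blue points are all open and lie between -0.67 and 0.36, whereas the dark blue points lie between -1.88 and 0.23.

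In each of the 8 genes other than LOC_Os01g04350, the 4 heated groups had the 4 highest mean levels, DJ-WT, onac023 and DJ seedlings under drought the next 3, and normal ZH11 seedlings the lowest. In 7 of these 8 genes every heated library was above every drought library. The exception was LOC_Os01g04370, with heated ZH11 seedling replicate 1 at 1282 CPM and DJ drought replicate 3 at 1336 CPM. The heated groups overlapped most of their neighbours in that order. LOC_Os01g04350 had another order. Its group means were highest in heated panicles (449 CPM), normal panicles (376 CPM) and normal DJ seedlings (341 CPM), followed by heated onac023 (294 CPM), and lowest in onac023 under drought (153 CPM) and normal ZH11 seedlings (49.4 CPM). From DJ-WT drought (232 CPM) through DJ-WT heat (230 CPM), ZH11 drought (224 CPM) and DJ drought (213 CPM) to ZH11 heat (203 CPM), neighbouring groups overlapped. Over the 19 libraries of the stress experiment, its log2 CPM had a Pearson r of 0.60 with the mean of the 9 genes, and the other 8 had an r of 0.97 to 0.99. These r values describe libraries that fall into heated and unheated sets, and the mean holds each gene itself.

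The other genes of the heat shock pathway were listed from the study's annotated tables of responsive genes, which were made from these libraries, so that their counts are not independent evidence of a direction. Under heat in ZH11 seedlings all 12 other small HSP genes rose, with a median log2 fold change of 10.30 against 0.09 over all genes, or 9.10 with the genes that had 0 counts in every normal library set at their lower bound. Of the genes of that list with counts in normal seedlings, LOC_Os03g14180 (Oshsp26) had the largest fitted rise (16.09 ± 1.73). LOC_Os11g13980 had 0 counts in normal seedlings and was at least 18010-fold higher under heat (against 3 counts per library). The smallest rise was that of LOC_Os06g11610, annotated as a mitochondrial small HSP (5.56 ± 0.55). All 10 HSF genes rose, with a median of 4.50, led by LOC_Os06g36930 (12.45 ± 1.19) and LOC_Os03g53340 (12.26 ± 0.86), with LOC_Os02g32590 the lowest (2.61 ± 0.68). Of 14 HSP100, HSP90 and HSP70 genes, 12 rose and 1 fell (beside 31.4% and 24.5% of all genes), with a median of 7.21. LOC_Os04g01740, annotated as a heat shock protein, rose by 17.46 ± 1.70 and the DnaK family gene LOC_Os03g16920 by 15.64 ± 1.84, both from at most 18 counts per normal library, whereas the DnaK family gene LOC_Os03g60620 was the 1 that fell (-1.03 ± 0.25).

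In heated panicles 7 of the 12 small HSP, 8 of the 10 HSF and 11 of the 14 chaperone genes rose, with medians of 5.84, 3.26 and 5.17, beside 8.57% of all genes and a median of 0.00. In DJ seedlings under drought 8 of 9 HSF genes tested, 7 of 12 other small HSP genes and 7 of 14 of the ATP-driven chaperones rose, with medians of 2.65, 1.35 and 1.27, beside the 4.48 of the 9 genes, while 1 HSF gene and 2 chaperone genes fell. Of all genes 25.2% rose and 29.1% fell there, with a median of -0.14. In ZH11 under drought the counts were 4 of 9, 7 of 11 and 10 of 14, with medians of 0.71, 3.28 and 2.69 beside 2.82 for the 9 genes, and 2 HSF genes fell, where 26.2% of all 24797 genes tested rose and 4187 of them fell (median 0.07). In the line comparison under drought, 6 of 12, 7 of 9 and 6 of 14 genes of the small HSP, HSF and chaperone lists were lower in DJ-WT, beside 7.21% of all genes, and under heat 4 of 12, 4 of 10 and 5 of 14, beside 2.24%. Their medians were -1.01, -1.18 and -0.93 under drought, against 0.09 over all genes, and -0.83, -0.67 and -0.96 under heat, against 0.03. Higher in DJ-WT were 2 small HSP genes under drought and 3 under heat, beside 18.1% and 9.04% of all genes.

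**Figure D5:**
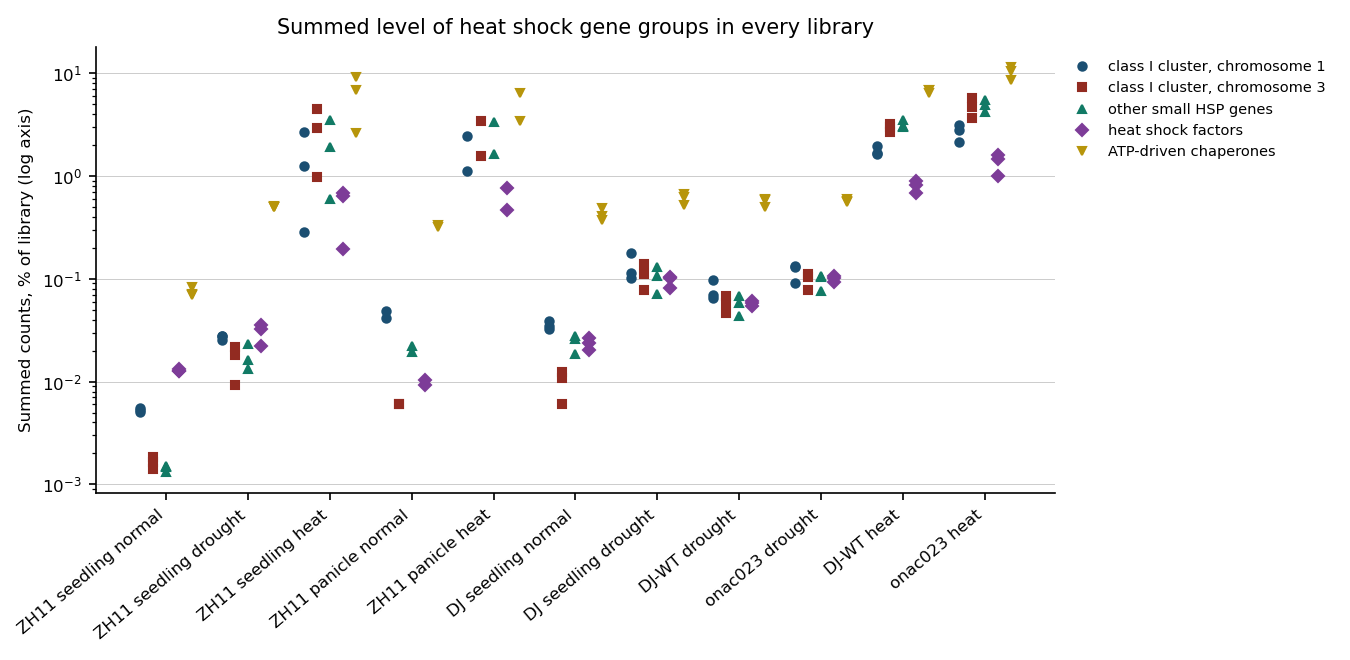
Summed counts of each cluster, 12 other small HSP genes, 10 HSF genes and 14 HSP100, HSP90 and HSP70 genes (ATP-driven chaperones), as percent of each library on a log axis, 1 point per library. The chromosome 3 cluster runs from 0.0014% in normal ZH11 seedlings to 5.70% in heated onac023, and the heated ZH11 seedling libraries spread the most in all 5 sets.

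The 5 genes outside the clusters whose log2 CPM followed the mean of the 9 genes most closely over the 19 stress libraries, among 30111 genes, were LOC_Os03g53400 (r = 0.997), HSP101 (LOC_Os05g44340, r = 0.994), which resolves protein aggregates together with small HSPs, the HSF-type gene LOC_Os03g53340 (r = 0.991), LOC_Os01g18100 (r = 0.987) and the small HSP gene LOC_Os04g36750 (r = 0.987). The libraries share the split into heated and unheated sets, so that any gene with a strong heat response ranks high by this measure.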

How the data were processed

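Paired reads of stranded total RNA libraries were quality-filtered with fastp by the authors. Their methods name an alignment with STAR to the MSU v7.0 rice genome and gene models, whereas the submitters' processing notes list HISAT2, StringTie and DESeq2, and the counting tool and its use of strand are not given in the sources used here. The 2 tables were deposited as estimated counts per gene model (expected counts, not normalized), and all values were already whole, so that rounding before the tests left them as they were. Coordinates and sequences of the genes were not used here.

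Each comparison was fitted with edgeR's quasi-likelihood test (edgeR 4.0.16, limma 3.58.1, R 4.3.3) on the libraries of its own groups, after filterByExpr and TMM normalization, over all genes that passed, with Benjamini-Hochberg adjustment. Calls needed both a change of more than 2-fold and an adjusted p below 0.05, the limits the study set. Interactions were contrasts over 4 groups. CPM were computed from total counts, and profile correlations from log2 CPM with a prior count of 2. Copy shares were compared by exact permutation tests on log2 ratios with 0.5 counts added (scipy 1.17.1). A variety-specific gene had at least 1 CPM in every seedling library of 1 variety and at most 0.1 CPM in those of the other, and counted as detected at 0.5 CPM. The tests were first run on simulated data. No library pair of a group agreed within sampling noise.

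Alternatives were DESeq2 1.42.0, RLE and upper quartile scaling, no filter, a minimum average of 1 log2 CPM, glmTreat, a replicate block, all libraries of the experiment in 1 fit, counts per read pair, each library left out, other wild-type libraries for drought, and, for copy shares, 5 counts added, the share of all 9 genes or, chosen after seeing the data, the cluster without LOC_Os01g04350. Same-numbered libraries deviated together in 1 comparison, DJ-WT against onac023 under heat (correlations of 0.384, 0.331 and 0.114 over 23459 genes, the numbers coming from the sample titles), where the block changed no call of the 9 genes. The text names all 9 genes, the 5 genes most like them, and the highest and lowest of each pathway list. The genes and lists were chosen with earlier results of these data known. Chromatin data of the study were not analysed here.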

Additional observations from a re-analysis of the deposited data

Results flagged for a closer look

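Tests of the difference between 2 responses, or between 2 line differences, were passed by 12 values of the 9 genes. For the heat response of panicles against that of ZH11 seedlings, these were LOC_Os01g04350 (log2 difference -1.46), LOC_Os01g04360 (-3.68), LOC_Os01g04380 (-5.16) and LOC_Os03g16030 (-2.50), all smaller in panicles, beside 23.4% of all genes. Of these calls only that of LOC_Os01g04380 held with any 1 library left out. For the drought response of DJ against that of ZH11 seedlings, LOC_Os01g04340 (2.19), LOC_Os01g04370 (4.38), LOC_Os01g04380 (3.62), LOC_Os03g16020 (2.06), LOC_Os03g16030 (2.29) and LOC_Os03g16040 (2.66) responded more in DJ, beside 20.2% of all genes. LOC_Os01g04350 responded less (-1.86), beside 28.2%. The call of LOC_Os01g04340 did not hold with every library left out. For the line difference under heat against that under drought, LOC_Os01g04350 passed (-1.03), beside 14.7% of all genes called lower. This call was lost under DESeq2, RLE, upper quartile scaling and glmTreat. Of the 9 genes, LOC_Os01g04350 alone passed all 3 of these tests, although its panicle and line calls did not hold with every library left out. How many of all genes passed all 3 was not counted, so this does not set the gene apart from others.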

How the results depend on the processing

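The calls of the 9 genes held in number under most alternatives for the stress responses, and less so for the lines and interactions. Without a library in turn, the number of genes called was 9 throughout for ZH11 seedling heat and 8 throughout for DJ drought and panicle heat, 7 to 8 for ZH11 drought, 4 to 8 for the lines under drought, 0 to 7 for the lines under heat, 5 to 8 for DJ against ZH11 without stress, 1 to 8 for the heat response of panicles against seedlings, and 0 to 1 for the line difference under heat against drought. With glmTreat the lines differed in 1 gene under drought and 0 under heat, and the heat interaction had 1 call. With the replicate number as a block (pairing), ZH11 drought had 7 calls, the heat interaction 2 and the drought interaction 6, and no other call of the 9 genes changed; over all genes, panicle heat had 4006 calls in place of 2793. With DJ seedlings as the wild type under drought, 0 genes were called, and LOC_Os01g04380 (0.13), LOC_Os03g16020 (0.29), LOC_Os03g16030 (0.26) and LOC_Os03g16040 (0.052) changed sign. The interaction of line with stress had 0 calls in place of 1 under DESeq2, RLE, upper quartile scaling and glmTreat, with 2, 2, 1 and 0 genes at an unadjusted p under 0.05. Its values near 0 changed sign for LOC_Os01g04380 (0.12 under DESeq2 and under RLE, 0.0015 under upper quartile scaling), LOC_Os03g16030 (0.17, 0.17 and 0.041, and 0.0069 with counts per read pair) and LOC_Os03g16040 (0.12 under DESeq2, 0.13 under RLE). Without a library in turn it ranged from -0.064 to 0.47 for LOC_Os01g04360, -0.26 to 0.19 for LOC_Os01g04380, -0.043 to 0.33 for LOC_Os03g15960, -0.44 to 0.15 for LOC_Os03g16020, -0.27 to 0.41 for LOC_Os03g16030 and -0.39 to 0.31 for LOC_Os03g16040. As a share of all 9 genes in place of the cluster, the span of log2 ratio changes under ZH11 seedling heat was 13.3, and the change reversed for LOC_Os03g15960 in ZH11 seedling heat (1.03) and panicle heat (1.85), LOC_Os03g16020 in DJ drought (0.70), and LOC_Os01g04380 (-0.0744) and LOC_Os03g16040 (1.79) in panicle heat, since the other cluster then enters the ratio. With LOC_Os01g04350 left out of its cluster, an alternative chosen after seeing the data, the span under ZH11 seedling heat was 3.14, and the change reversed for LOC_Os01g04370 (-0.95) and LOC_Os01g04380 (-0.21) in ZH11 seedling heat, LOC_Os01g04380 in ZH11 drought (-0.23) and panicle heat (-3.51), and LOC_Os01g04340 (-2.50), LOC_Os01g04360 (-1.84) and LOC_Os01g04380 (-0.999) in DJ drought, since that gene then no longer enters the ratio.

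Over all genes, the number called moved by more than 1.5 times for panicle heat (4482 with DESeq2 and 1146 with glmTreat, main 2793), for the lines under drought (3869 with a minimum average, 2735 with glmTreat and 294 with DJ seedlings, main 6148) and for the lines under heat (1555 with a minimum average and 702 with glmTreat, main 2647). Upper quartile scaling shifted the median of all genes by -0.23 on the log2 scale for DJ drought, 0.12 for DJ against ZH11 and -0.31 for the drought interaction, whose calls were then 3744 higher and 8596 lower in place of 5206 and 7258. All libraries in 1 fit shifted it by -0.15 and -0.17 for DJ drought and the drought interaction, and no filter by -0.19 for the latter. DESeq2 and RLE shifted it by 0.16 for the interaction of line with stress, with 3298 higher and 3491 lower under DESeq2 in place of 2297 and 3789. The low counts of LOC_Os01g04340 in normal ZH11 seedlings limit its fold changes. In other cases the cause of a change was not tested.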
